A study of Homo sapiens with 6 samples.

Results

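The endothelin genes were examined in ES-2, an established human ovarian cancer cell line, on 6 Affymetrix PrimeView arrays, 3 labelled CADM1 overexpression and 3 labelled control. The genes were the ligand genes EDN1 and EDN2, the receptor genes EDNRA and EDNRB, and ECE1, the gene of the converting enzyme. Every probe set whose platform annotation named 1 of these 5 genes and no other was taken, which gave 12 of the 49293 probe sets that are not array controls. EDN1 had 2, EDN2 had 1, EDNRB had 4 and ECE1 had 5, and no probe set in the annotation used here named EDNRA. A further probe set that named EDNRB together with SFTPB was left out. All RNA came from ES-2 cells in logarithmic growth. The series calls the controls mock cells, the labels do not say how CADM1, a cell adhesion molecule, was introduced or whether a clone was used, and no batch is given. On 2 overexpression arrays the source name carries CADM2 or CADM3 in place of CADM1. Whether arrays sharing a label were grown as separate cultures is left unsaid by the labels, so the errors and p-values below measure only array-to-array spread, possibly technical.

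Endothelins are short vasoconstrictor peptides. They are cut out of longer precursors, first by furin-type proteases and then by the membrane metalloprotease ECE1, and act through the G protein-coupled receptors EDNRA and EDNRB. In blood vessels the endothelium makes endothelin-1, which contracts the smooth muscle beneath it, and in ovarian cancer endothelin-1 has been described as a growth signal that tumour cells make and answer themselves, mainly through EDNRA.

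All 3 ligand probe sets read higher on average in the arrays labelled overexpression, by 0.34 and 0.21 for EDN1 and by 0.17 for EDN2 on the log2 scale. The 9 probe sets of EDNRB and ECE1 lay between -0.09 and 0.06, and in each of them the groups overlapped. This group of genes was put together with the EDN1 difference in this comparison already known, so all differences of the members are given as a description, with standard errors and without p-values.

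The stretch upstream of the main EDN1 transcript start is shown beside that of EDN2, because the ligands are the members whose values were higher. Both are the 250 bases before an annotated start in RefSeq (build GRCh38.p14), written 5′ to 3′ along the gene, with capitals marking each match to a searched motif. The EDN1 stretch is chr6:12290111-12290360 on the plus strand, and the EDN2 stretch is chr1:41484684-41484933 on the minus strand.
EDN1: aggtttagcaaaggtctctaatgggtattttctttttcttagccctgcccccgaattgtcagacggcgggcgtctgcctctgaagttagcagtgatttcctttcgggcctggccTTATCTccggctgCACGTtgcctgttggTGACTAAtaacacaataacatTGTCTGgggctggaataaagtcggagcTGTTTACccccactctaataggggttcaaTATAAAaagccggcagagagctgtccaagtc
EDN2: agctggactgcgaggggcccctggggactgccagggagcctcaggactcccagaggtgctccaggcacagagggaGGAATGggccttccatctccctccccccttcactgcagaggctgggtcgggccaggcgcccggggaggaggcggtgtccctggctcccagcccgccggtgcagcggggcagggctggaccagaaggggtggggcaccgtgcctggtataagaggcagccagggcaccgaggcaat
Counting the base just before the start as -1, the EDN1 stretch held TATAAA, the TATA box, from -31 to -26, TGTTTAC, a forkhead motif, from -60 to -54, and CAGACA, a SMAD motif, on the opposite strand from -87 to -82. It further held TGACTAA, the variant AP-1 motif that is known from EDN1, from -108 to -102, ACGTG, the core of the hypoxia response element, on the opposite strand from -123 to -119, and AGATAA, a motif of GATA factors, on the opposite strand from -136 to -131. The variant AP-1 motif and the GATA motif were searched because they are described for EDN1, so finding them was not a test. The hypoxia, SMAD and forkhead motifs are those of factors listed below as known to act on EDN1, so these matches were not a test either. Among 35116 such stretches upstream of RefSeq starts, TATAAA occurred on either strand in 10.7%, TGTTTAC in 2.98%, CAGACA in 13.6%, TGACTAA in 1.62%, ACGTG in 18.5% and AGATAA in 9.17%. The EDN2 stretch held 1 match, GGAATG, a TEAD motif, from -175 to -170, which occurred in 11.9% of all stretches. Only the exact letters TATAAA were searched, so tataag, near the 3′ end of the EDN2 stretch, was not counted. Of the other motifs searched on both strands, TGACTCA, the AP-1 consensus (4.2% of all stretches), GGGCGG, the GC box (42.6%), CCAAT (32.0%), and TGACNNNGC, the antioxidant response core (10.9%), had no match in either stretch. The EDN2 stretch was richer in G and C, at 70.8%, than that of EDN1, at 49.2%, against a median of 58.0% over all stretches. A match is a run of letters and not evidence of binding, and nothing in these arrays bears on which factor acts there.

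**Figure D1:**
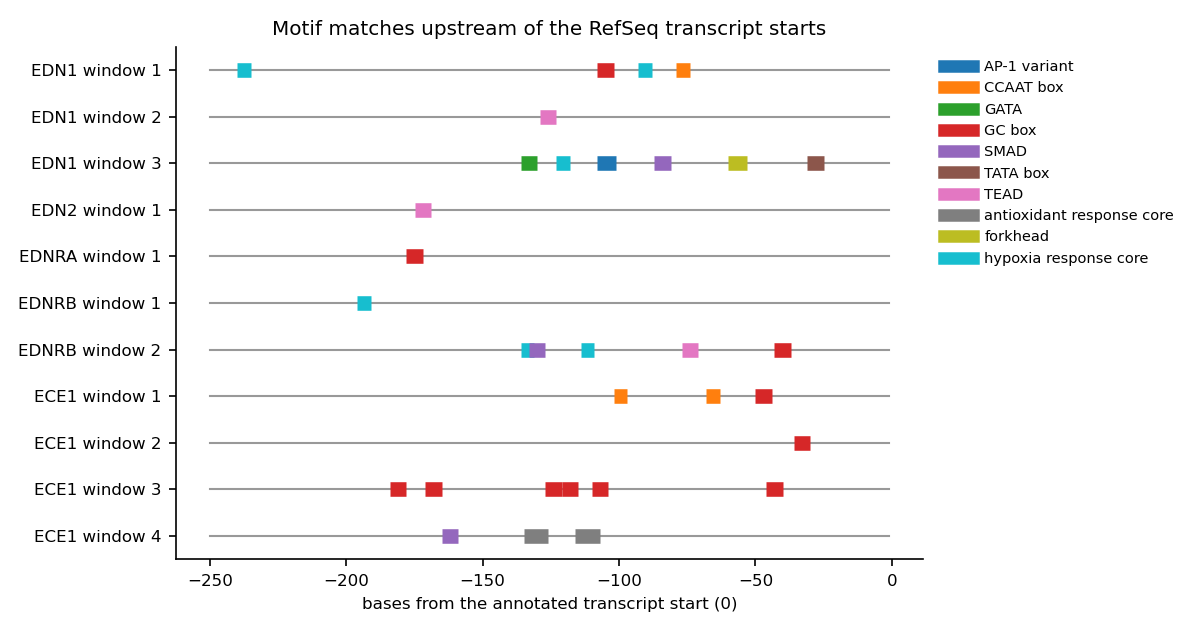
Motif matches in the 250 bases upstream of each RefSeq transcript start of the 5 genes; the horizontal axis is the distance in bases from the start, each line is 1 window (numbered from the 5′ end of the gene) and each coloured block is a match on either strand. The third EDN1 window, the one printed in the text, holds 6 matches, and no other window holds an exact match to TATAAA or to the GATA, variant AP-1 or forkhead motif.

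The other windows carried other letters. EDN1 has 3 annotated windows, and the 2 that begin farther upstream held no TATAAA. ECE1 has 4, and the most GC-rich of them, at 83.2% G and C, held 6 GC boxes. The single EDNRA window held 1 GC box. EDNRB has 2 windows, with hypoxia response cores in both.

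Before the ligands, the labels were checked on CADM1 itself. Its brightest probe set, 11728805_a_at, read 8.14, 8.10 and 8.18 on the arrays labelled overexpression and 10.24, 10.29 and 10.23 on the arrays labelled control, so it was lower where the label says it was raised. The log2 difference was -2.12 ± 0.031 (SE). Whether this probe set would read the introduced CADM1 is unknown here, and any other CADM1 probe sets were not looked at. Each direction given is that of the labels. A swap of the labels would reverse every one of them, and whether the labels were swapped was not tested. Values are the deposited log2 values. Array medians lay between 6.18 and 6.2 and array minima between 2.15 and 2.23, and the median SD within a group was 0.069 over all probe sets. Probe sets differ in how brightly they bind, so levels of different probe sets are not ranked, and the array minima serve only as the lower end of the scale.

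EDN1, which encodes the precursor of endothelin-1, was read by 2 probe sets. The brighter, 11726023_a_at, read 7.41, 7.34 and 7.52 on the overexpression arrays and 7.07, 7.11 and 7.04 on the control arrays. Every overexpression array was above every control array, and the gap between the groups was wider than the range within either. The means were 7.42 ± 0.091 (SD, n = 3) and 7.08 ± 0.034 (SD, n = 3), a log2 difference of 0.34 ± 0.052 (SE). On the linear scale the signal was 1.27 times that of the controls, or 27.0% higher. By size this difference ranked 32 from the top among the 49293 probe sets, of which 1% lay above 0.23. The other EDN1 probe set ranked 739 and that of EDN2 1526, both with differences under 0.23.

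The other EDN1 probe set, 11726024_at, read 6.53, 6.63 and 6.48 on the overexpression arrays and 6.29, 6.49 and 6.24 on the controls. Its groups met, since the second control array read slightly above the third overexpression array. The means were 6.54 ± 0.077 and 6.34 ± 0.134 (SD, n = 3 each), a log2 difference of 0.21 ± 0.072 (SE). The difference had the sign of the brighter probe set and was smaller, with a signal 1.15 times that of the controls. The arrays did not stand in the same order on both probe sets. The third overexpression array was the highest of its group on the brighter one and the lowest on the dimmer one.

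EDN2 encodes endothelin-2, a close relative that binds the same receptors. Its single probe set, 11731286_at, read 7.44, 7.27 and 7.27 on the overexpression arrays and 7.20, 7.02 and 7.24 on the controls. The groups did not overlap, but the lowest overexpression arrays, at 7.27, were close to the highest control, at 7.24. The means were 7.33 ± 0.097 and 7.15 ± 0.114 (SD, n = 3 each), with a log2 difference of 0.17 ± 0.063 (SE) and a signal 1.13 times that of the controls. The difference was 0.11 when control array 2 was left out and 0.12 when overexpression array 1 was. The second control array, low for EDN2, was the highest control for both EDN1 probe sets.

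**Figure D2:**
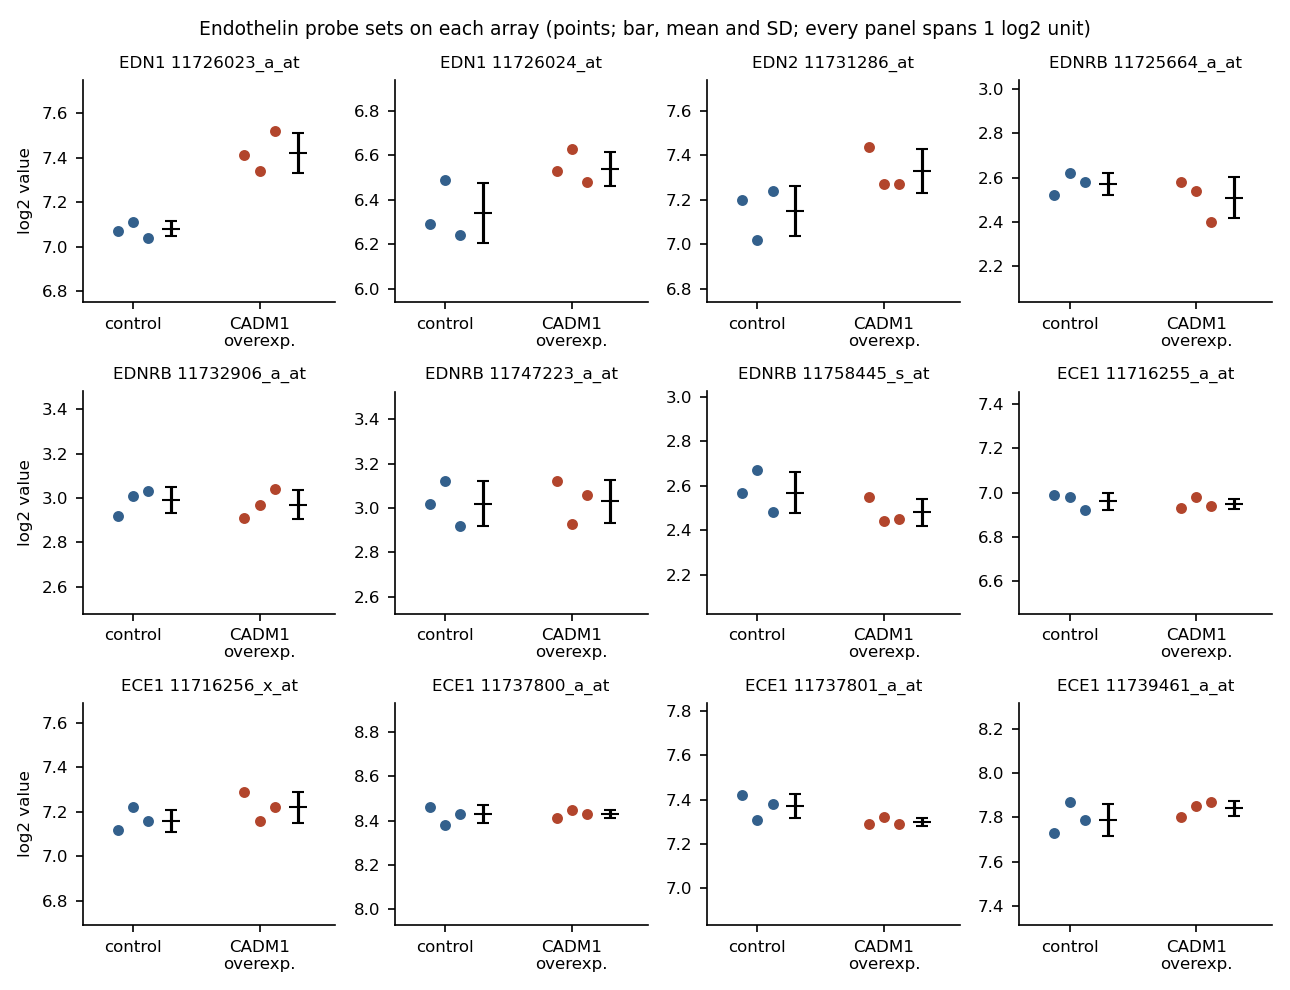
Deposited log2 value of each of the 12 probe sets on each array (points, controls left and CADM1 overexpression right), with the group mean and SD beside them; every panel spans 1 log2 unit, and the vertical position differs between panels. The groups separate for EDN1 11726023_a_at, narrowly for EDN2 11731286_at, and overlap in the other 10.

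Of the receptors, EDNRB, which binds all endothelins alike and also clears them from the circulation, could be looked at. Its 4 probe sets read between 2.40 and 3.12 on all 6 arrays, not far above the array minima of 2.15 to 2.23. Detection calls were not used here, so these values do not show whether EDNRB is expressed in ES-2 cells. The log2 differences were -0.06 ± 0.072 for 11725664_a_at, -0.02 ± 0.074 for 11732906_a_at, 0.01 ± 0.081 for 11747223_a_at and -0.09 ± 0.073 for 11758445_s_at (SE). Each was about as large as its standard error or smaller, apart from the last, which lay slightly beyond it. EDNRA, the receptor most often named in ovarian cancer, was not analysed here.

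ECE1 cuts the inactive big endothelins to their active forms. Its brightest probe set, 11737800_a_at, read 8.41, 8.45 and 8.43 on the overexpression arrays and 8.46, 8.38 and 8.43 on the controls. The arrays of both groups are interleaved, and the log2 difference was 0.00 ± 0.035 (SE). The other 4 gave -0.01 ± 0.049 for 11716255_a_at, 0.06 ± 0.051 for 11716256_x_at, -0.07 ± 0.046 for 11737801_a_at and 0.04 ± 0.044 for 11739461_a_at (SE). They had no common sign. 11716256_x_at is of a type that may bind more than 1 transcript. The ECE1 values were tight, with SDs of 0.017 to 0.072 within groups.

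Across the family, 7 of the 12 probe sets were higher and 5 lower on average, with a median log2 difference of 0.01, against 0.00 over all 49293 probe sets. In 2 of the 12 the overexpression arrays lay above every control, and in none below, where the groups did not overlap in 17.4% of all probe sets, 8.5% above and 8.94% below. In limma's fit over all probe sets 1 of the 12, EDN1 11726023_a_at, passed an adjusted p under 0.05 (in 13 of 14 alternatives too, the exception being the fit without a mean-variance trend), where 1.49% of all probe sets passed, 0.605% higher and 0.887% lower, and 12.8% had an unadjusted p under 0.05. Since the genes were chosen with this comparison known, nothing is read from these counts, from the EDN1 call or from how often that call held.

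**Figure D3:**
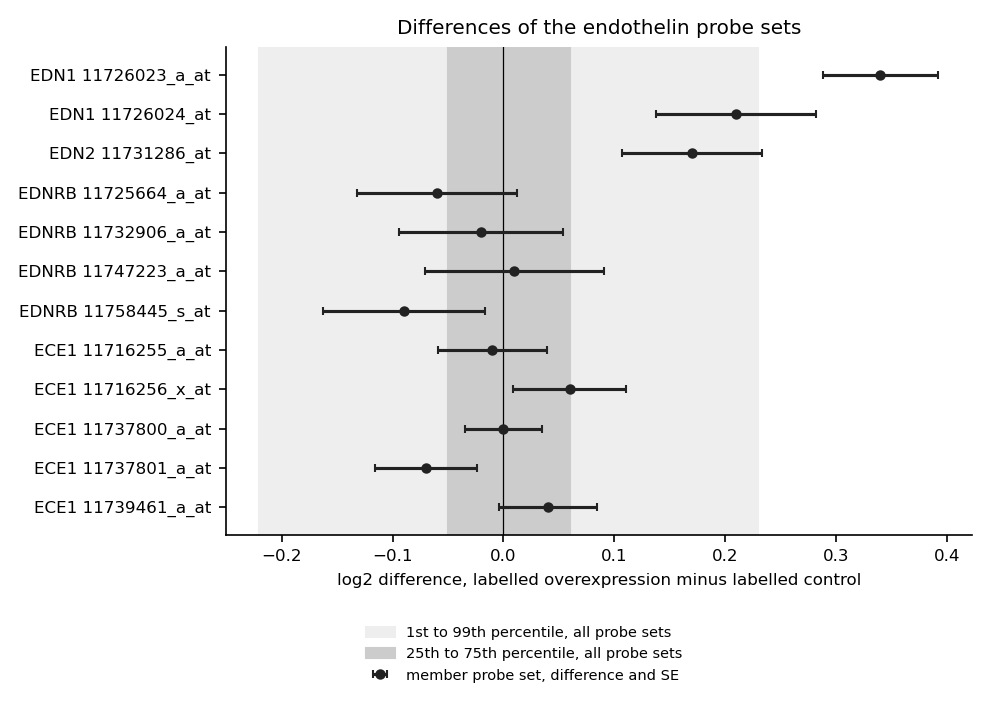
Log2 difference between arrays labelled overexpression and control (horizontal axis) with its standard error for each of the 12 probe sets. The dark band spans the 25th to 75th percentile of all probe sets (-0.05 to 0.06) and the light band the 1st to 99th (-0.22 to 0.23), and EDN1 11726023_a_at, at 0.34, lies to the right of both.

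Genes whose 6 array values ran most like those of EDN1 11726023_a_at were picked by Pearson's r among 9765 other genes at or above the median level. They were L3HYPDH, an enzyme of hydroxyproline breakdown (r = 0.998), TP53INP1, a p53-induced gene (0.997), KIAA0319 (0.996), MRPL54, a mitochondrial ribosomal protein (0.994), and ASPSCR1 (0.994). Of these 5, TP53INP1 differed most between the groups, by 0.22 ± 0.043 (SE), and MRPL54 least, by 0.07 ± 0.025 (SE). These correlations rest on 6 arrays of 2 groups, are the highest of many, and share the arrays and the group difference with EDN1, so they only describe likeness. The pair of EDN1 probe sets correlated with each other at 0.691.

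Around the ligands and receptors, 6 lists of related genes were tested, holding 120 measured genes, and 5 of them passed limma's test with Benjamini-Hochberg adjustment over 18132 genes. Over all genes 2.16% passed, 0.96% higher and 1.2% lower, and 13.9% had an unadjusted p under 0.05. Of the 5, ITPR1, KLF4 and ADM rose in the arrays labelled overexpression, and PTGS1 and FOS fell. The median log2 difference of the 120 was 0.01, as over all genes. The lists were drawn up with earlier results of these data known.

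None of 12 genes of endothelin processing and breakdown passed the test in limma, with 1 at an unadjusted p under 0.05. That was ECE2, a relative of ECE1 that also converts big endothelin, whose log2 difference was -0.12 ± 0.039 (SE; limma, adjusted p = 0.132). On its brightest probe set all overexpression arrays, at 8.32, 8.24 and 8.37, lay below the controls, at 8.40, 8.46 and 8.44, and 6 of the 9 ECE2 probe sets had that sign. ECE2 passed in none of the 14 alternatives (adjusted p from 0.0635 to 0.377). CTSG, the protease cathepsin G, gave -0.16 ± 0.083 (SE; limma, adjusted p = 0.417). FURIN, which makes the first cut in the precursor, gave -0.02, and MME, the endopeptidase neprilysin that breaks endothelin-1 down, gave -0.07. The third ligand, EDN3, gave 0.11 ± 0.093 (SE), and 2 of the 4 EDN3 probe sets had that sign. The median of the list was -0.02.

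Of 18 genes of receptor coupling and desensitisation none passed in limma, with 4 at an unadjusted p under 0.05 and a list median of 0.02. GNAI2, an inhibitory G protein subunit, came nearest at -0.11 ± 0.026 (SE; limma, adjusted p = 0.0513). Its adjusted p ran from 0.0145 to 0.381 over 14 alternatives, and it passed in 5 of them, among them without the third overexpression array (0.0145) and without the third control array (0.0303). GNA12, another G protein subunit, gave -0.11 ± 0.033 (SE; limma, adjusted p = 0.126). GNAQ and GNA11, the subunits through which endothelin receptors reach phospholipase C, gave 0.07 and 0.04.

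ITPR1, the inositol trisphosphate receptor that releases calcium from the endoplasmic reticulum, read 10.68, 10.70 and 10.61 on the overexpression arrays and 10.43, 10.33 and 10.48 on the controls. Its groups were well apart, with a log2 difference of 0.25 ± 0.036 (SE; limma, adjusted p = 0.0019), and all 3 ITPR1 probe sets had that sign. The other inositol trisphosphate receptors, ITPR2 and ITPR3, gave 0.07 and -0.03. ITPR1 kept its call without each array in turn and lost it without a mean-variance trend (adjusted p = 0.206), with a range of 0.000755 to 0.206 over 14 alternatives.

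Among 26 transcription factors and coactivators known to act on EDN1, 1 rose and 1 fell, with 7 at an unadjusted p under 0.05 and a list median of 0.03. KLF4, a zinc finger factor, rose by 0.15 ± 0.037 on the log2 scale (SE; limma, adjusted p = 0.0495). FOS, a partner of JUN in AP-1, fell by 0.16 ± 0.033 (SE; limma, adjusted p = 0.0226), reading 8.72, 8.69 and 8.78 against 8.89, 8.92 and 8.86. JUN gave 0.14 ± 0.069 and FOSL2, another AP-1 member, 0.11 ± 0.035 (SE), and neither passed the test. HIF1A, the hypoxia factor, gave -0.05, GATA2 gave -0.02, SMAD3 gave 0.04 and FOXO1 gave 0.00. Like FOSL2, VEZF1 (0.07), TEAD1 (0.06), YAP1 (0.06) and GATA6 (-0.15) had an unadjusted p under 0.05 in limma without passing the test. The KLF4 call held in 4 of 14 alternatives (adjusted p from 0.0299 to 0.307), and of the single arrays it was kept without the third control array alone. Its adjusted p was 0.0894, 0.185 and 0.0599 when overexpression array 1, 2 or 3 was left out, and 0.182 and 0.162 when control array 1 or 2 was. The FOS call held in 8 of 14 (0.0107 to 0.247) and was lost when overexpression array 1 (0.125) or 2 (0.0986), or control array 1 (0.0984) or 2 (0.103), was left out.

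Of 18 genes reported to respond to endothelin-1 in ovarian cancer none rose and 1 fell, with 5 at an unadjusted p under 0.05 and a list median of 0.01. The list was not split by reported direction, so its counts and median do not show whether such a response is present. PTGS1, the cyclooxygenase COX-1 of prostaglandin synthesis, read 8.22, 8.28 and 8.23 on the overexpression arrays and 8.51, 8.45 and 8.57 on the controls. The groups were well apart, the log2 difference was -0.27 ± 0.038 (SE; limma, adjusted p = 0.00171), and all 4 PTGS1 probe sets had that sign. It kept its call without each array in turn and lost it without a mean-variance trend (adjusted p = 0.126), with a range of 0.00109 to 0.126 over 14 alternatives. VEGFA, the vascular growth factor, gave -0.09, the gelatinase gene MMP9 gave 0.17 ± 0.081, MMP2 gave 0.13 ± 0.089 (SE) and SNAI1, a repressor of E-cadherin, gave -0.04. VEGFA, TIMP2 (-0.08), EGFR (0.08) and CDH1 (0.18) had an unadjusted p under 0.05 in limma, and MMP9, MMP2 and SNAI1 did not. Apart from PTGS1 none of the list passed the test.

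Among 29 other vasoactive peptides, their enzymes and receptors 1 rose and none fell, with 2 at an unadjusted p under 0.05 and a list median of 0.02. This was ADM, the vasodilator adrenomedullin, at 9.86, 9.86 and 9.82 on the overexpression arrays against 9.66, 9.74 and 9.70 on the controls. Its log2 difference was 0.14 ± 0.028 (SE; limma, adjusted p = 0.014), and all 3 probe sets had that sign. ADM held its call in 9 of 14 alternatives (adjusted p from 0.00793 to 0.255) and lost it when overexpression array 1 (0.0991) or 2 (0.0605), or control array 1 (0.0991), was left out. NPPC, the precursor of C-type natriuretic peptide, gave 0.19 ± 0.093, and NPR3, a receptor that clears natriuretic peptides, gave 0.09 ± 0.032 (SE). AGT, the angiotensin precursor, gave -0.04 and the endothelial nitric oxide synthase NOS3 gave -0.01.

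**Figure D4:**
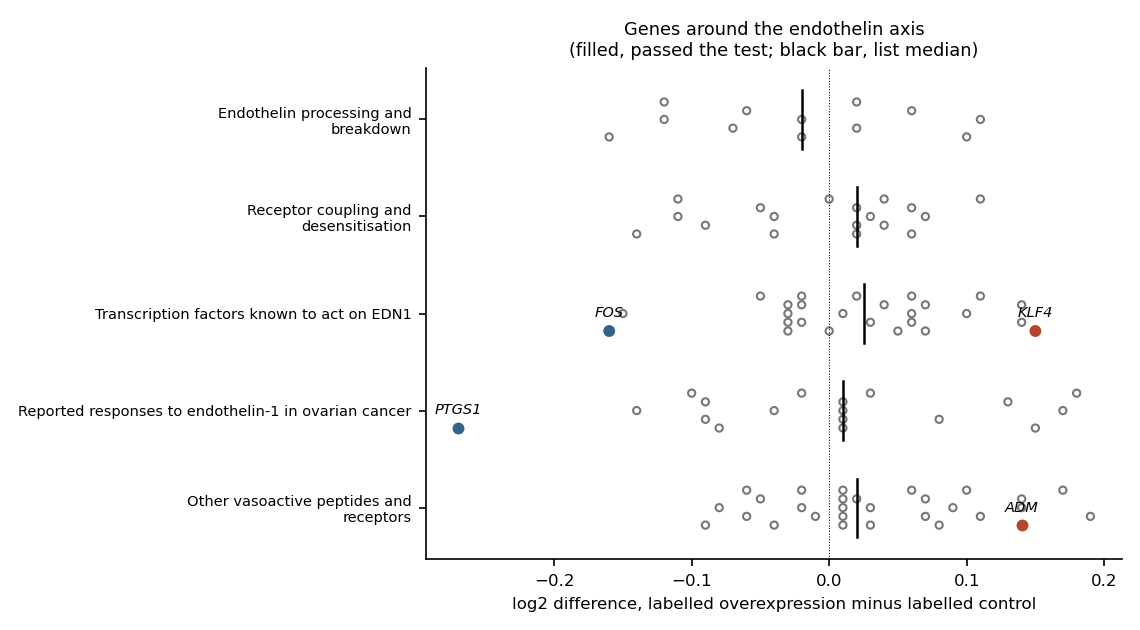
Log2 difference between arrays labelled overexpression and control (horizontal axis) for each measured gene of 5 of the 6 related lists, 1 point a gene; filled points passed the test and black bars are list medians. The medians lie between -0.02 and 0.03, and PTGS1, at -0.27, lies farthest out.

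Markers of the cells that normally make or answer endothelin were looked at beside these values. Of 9 endothelial markers CDH5, the endothelial cadherin, fell by 0.27 ± 0.065 (SE; limma, adjusted p = 0.0475). The call was lost without each of the 6 arrays in turn (adjusted p from 0.0558 to 0.199) and held in 5 of 14 alternatives (0.0279 to 0.245). KDR, a receptor of vascular growth factors, gave 0.26 ± 0.097 (SE; limma, adjusted p = 0.23), and only 1 of the 2 KDR probe sets had that sign. CDH5 and KDR were the 2 of the 9 at an unadjusted p under 0.05. Of the 9 differences 6 were above 0, and the median of the 9 was 0.05, against 0.01 over all genes. The log2 values of the 9 summed to between 48.70 and 49.98 on the overexpression arrays and between 48.72 and 49.48 on the controls, ranges that overlap. None of 6 smooth muscle, 6 melanocyte, 7 epithelial, 5 ovarian and 5 blood markers passed in limma, with 1, 1, 4, 2 and 0 of them at an unadjusted p under 0.05. The 4 epithelial ones were the keratin genes KRT7 (-0.06), KRT8 (-0.04) and KRT18 (-0.07) and, in the other direction, CDH1, the epithelial cadherin (0.18). Only 1 of the 2 CDH1 probe sets had that sign. The median of the epithelial list was -0.04. The 2 ovarian ones were MSLN, which encodes mesothelin (0.10), and FOLR1, a folate receptor (-0.08), and the median of that list was 0.02. On the controls the 5 ovarian markers averaged 4.57 for PAX8, 4.23 for WT1, 4.10 for EMX2, 9.96 for MSLN and 10.91 for FOLR1. The 7 epithelial markers averaged 12.53 for KRT7, 13.00 for KRT8, 13.30 for KRT18, 5.55 for KRT19, 3.01 for EPCAM, 4.74 for CDH1 and 4.99 for MUC1. Without detection calls these values do not show which of them are expressed. No marker was listed at 0, since log2 values on these arrays do not reach it, and the part of other cells in the ligand values was not tested.

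**Figure D5:**
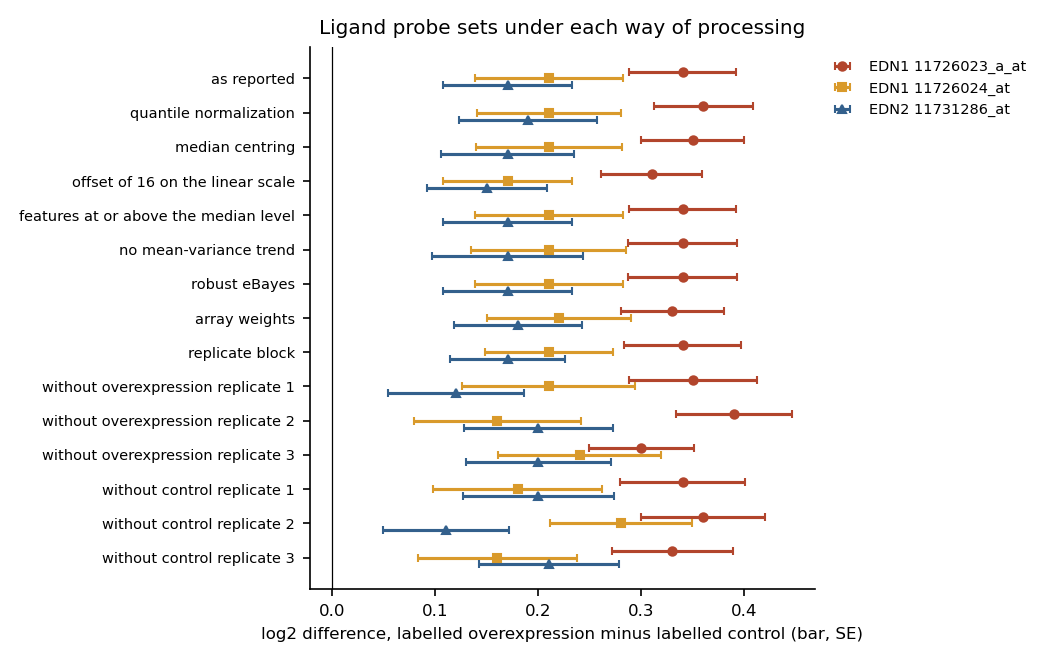
Log2 difference (horizontal axis, with its standard error) of the 3 ligand probe sets under the reported processing and 14 alternatives, 1 row each. Every point lies to the right of 0, with EDN1 11726023_a_at between 0.30 and 0.39, EDN1 11726024_at between 0.16 and 0.28 and EDN2 between 0.11 and 0.21. The rows for the median-level filter, no mean-variance trend, robust eBayes and the replicate block repeat the reported difference by construction.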

How the data were processed

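Total RNA of ES-2 cells was hybridised to 6 arrays, 3 a group. The authors deposited log2 values, credited to MAS5 per the submitters' processing notes, with no version, scaling method or genome build given in the sources used here. The log2 scale was inferred from the range of 2.15 to 14.33, and the way the authors summarised probes is unsettled, so the size of fold changes and the meaning of low values are too. Scanner files and detection calls were not used, and precision is limited by how few arrays there are.

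Of 49395 probe sets 102 were array controls. Of the rest 44988 named 1 gene, 1832 several and 2473 none in the platform annotation, and symbols were updated through the gene number where it matched (44961). Members were read probe set by probe set; other genes by their brightest probe set, of the _x_at type only without another (18132 genes). Genes of the lists without such a probe set were not analysed here. The result of 1 related list is not reported here; its genes stay in the counts over all lists.

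Differences between groups were fitted by limma 3.58.1 under R 4.3.3 (lmFit, eBayes with a mean-variance trend, two-sided, Benjamini-Hochberg over all probe sets or genes, threshold 0.05). The fit was also run on simulated data with independent noise on each array, and that result is not reported here. No filter was applied. The members, lists and motifs were chosen with earlier results of these data known. Genes named are all members, the called genes of each list or the 2 of lowest p, CADM1, and the 5 most correlated with EDN1; any other list gene in the text was picked with its value in view. Figures were drawn with matplotlib 3.10.9.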

Additional observations from a re-analysis of the deposited data

How the results depend on the processing

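The brighter EDN1 probe set kept its sign and size under all 14 alternatives (quantile normalization, median centring, an offset of 16 on the linear scale, features at or above the median level, other variance models, array weights, the replicate block and each array left out), at 0.30 to 0.39. The filter, the other variance models and the replicate block leave its difference at 0.34 by construction. Array medians lay between 6.18 and 6.2 before any rescaling, so median centring could change it little. Since its groups do not overlap, leaving 1 array out could not change the sign. The other EDN1 probe set and EDN2 kept their sign as well. The sign of the small differences changed in some alternatives for EDNRB 11732906_a_at (-0.05 to 0.02) and 11747223_a_at (-0.04 to 0.07), and for ECE1 11716255_a_at and 11737800_a_at; the EDNRB probe sets lie below the median level and have no value under the filter on it. Without a mean-variance trend 0 members were called in limma (2 at an unadjusted p under 0.05), 17 of all probe sets, 11 of all genes and 0 of the related list genes (19 at an unadjusted p under 0.05).

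With 1 array left out, 241 to 692 probe sets, 116 to 375 genes and 2 to 6 related list genes were called, against 735, 392 and 5 with all arrays. The gene count was 116, 226, 142 and 189 when overexpression array 1 or 2, or control array 1 or 2, was left out, and the related list count 2, 2, 2 and 3. With the replicate number as a block the calls were 377 probe sets, 172 genes and 2 related list genes, ITPR1 and PTGS1. Same-numbered arrays deviated together at correlations of 0.129, -0.0713 and -0.0734, and differently numbered ones at -0.124 to 0.177. A pairing by number is thus not shown. With 3 arrays a group its absence is not shown either, and the labels do not say. The median log2 difference of all genes was 0.008 as reported, 0.007 after quantile normalization and 0.011 after median centring.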
